A study of Mus musculus with 8 samples.

Results

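LIN28A CLIP reads were compared between the coding sequence and the 3′ UTR of the same transcript, separately in each of 3 libraries. The transcripts described are the 7317 protein-coding RefSeq transcripts of the CLIP table, out of 7820 transcripts listed, that had at least 50 coding plus 3′ UTR counts in each library and had bases outside the coding sequence. All 3 CLIP libraries came from untransfected cells of A3-1, a mouse embryonic stem cell line grown with serum and the cytokine LIF, for which the labels state no genetic change. They differ in the anti-LIN28A antibody: 35L33G and 2J3 are monoclonal antibodies made by the submitters, and the last is a commercial polyclonal serum. The labels do not say whether the libraries were made from different cultures, so p-values reflect how much these 3 libraries vary, and that variation may be technical only. Further readouts of the same transcripts came from poly(A) RNA of untreated cells. Others were poly(A) RNA and ribosome footprints from cells treated for 48 hours with siRNA against luciferase or Lin28a (1 library each). Poly(A) reads by region, with no replicate and from a condition that is not named, served as the fixed reference of every result given relative to poly(A).

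LIN28A carries a cold shock domain and a pair of zinc knuckles, through which it contacts RNA, and is made in early embryos and stem cells. It is best known for binding the precursors of the let-7 microRNAs and blocking their maturation, and it also binds many mRNAs. In CLIP, proteins are crosslinked to RNA in living cells by ultraviolet light, the protein is immunoprecipitated, and the attached RNA fragments are sequenced, so that read density marks where along a transcript the protein was attached. Coding sequence is traversed by ribosomes, whereas the 3′ UTR is where microRNAs and many other RNA-binding proteins act.

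Total exon counts were 7698479 for 35L33G, 7849235 for 2J3 and 8027670 for polyclonal. The stem cell label was checked in the untreated poly(A) library, where all 10 stem cell markers lay between 139.8 (Klf4) and 1177 (Pou5f1) CPM, that is, counts per 1000000 counts in the table. The 7 listed markers of differentiated lineages lay between 0.108 (Sox17) and 8.74 (Nes) CPM. Of the fibroblast feeder markers, Col1a2 stood at 0.756, Col1a1 at 1.73 and Thy1 at 24.1 CPM. The lineage marker Afp and the fibroblast markers S100a4 and Postn had no row in the table used. In bulk libraries fewer cells of a type and less RNA per cell cannot be told apart. Transcripts had a median coding length of 1500 bases and a median of 1247 bases outside it. The non-coding length includes the 5′ UTR, whose reads were not used, so the 3′ UTR density given here is too low, and a coding over 3′ UTR ratio too high, by an amount that depends on the 5′ UTR. Members lay close together at the count minimum: Pih1d1 and Sh3bgrl3 with 49 counts in their lowest library were left out, and Rnf25 and Zfp384 with 50 were kept.

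Pooled over the members, coding sequence held 67.7%, 67.6% and 67.2% of the coding plus 3′ UTR counts in 35L33G, 2J3 and polyclonal. Per kilobase this was 345, 351 and 358 coding counts against 199, 203 and 211 counts in the 3′ UTR, a density ratio of 1.74, 1.72 and 1.69. The 3 libraries were thus alike, and coding sequence was the denser region in each. The CLIP table also lists poly(A) reads by region, from a library whose condition the header does not name. In that poly(A) column coding sequence held 74.5% of the reads and the density ratio was 2.42, higher than in any CLIP library. Reads in neither region made up 1.42%, 1.36% and 1.3% of exon counts in CLIP and 4.57% in the poly(A) column.

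For a single transcript, the region ratio is the log2 of coding counts per base over 3′ UTR counts per non-coding base, with 0.5 counts added to each; values above 0 mean that coding sequence was denser. The median transcript had a ratio of 0.85 in 35L33G, 0.85 in 2J3 and 0.80 in polyclonal, and 0.87 for the mean of the 3 libraries. The middle of the CLIP distribution therefore lay close to that of the poly(A) column, whose median was 0.98. The spread did not: the central 90% of transcripts ran from −1.74 to 4.53 in CLIP and from −0.10 to 3.33 in the poly(A) column. Coding sequence was denser in 72.1%, 71.2% and 70.7% of transcripts in the CLIP libraries and in 93.5% in the poly(A) column.

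**Figure D1:**
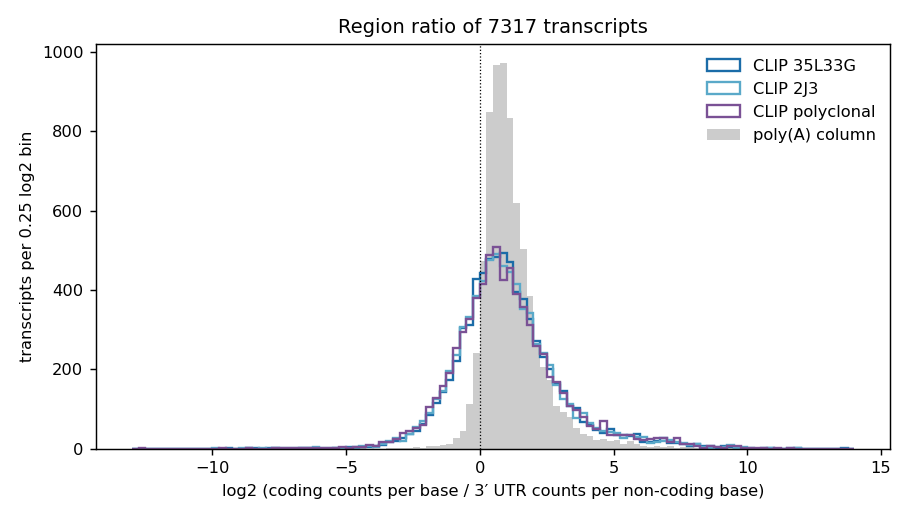
Distribution of the region ratio over 7317 transcripts. The x axis is log2 of coding counts per base over 3′ UTR counts per non-coding base, the y axis the number of transcripts per 0.25 log2 bin; lines are the 3 CLIP libraries and the grey area is the poly(A) column. The CLIP curves lie on each other with medians of 0.85, 0.85 and 0.80, and reach further to both sides than the poly(A) column, in particular below 0.

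The antibodies placed transcripts in much the same order. Across transcripts the rank correlation of the region ratio was 0.87 between 35L33G and 2J3, 0.88 between 35L33G and polyclonal, and 0.88 between 2J3 and polyclonal, against 0.48 to 0.49 for each library with the poly(A) column. These are descriptions over 7317 transcripts of the same libraries, which are not independent replicates. For 83.7% of transcripts the 3 ratios shared a sign, 4611 of them denser in coding sequence and 1516 denser in the 3′ UTR. The median SD over the libraries was 0.36. It was 0.19 for the 1706 transcripts with 1000 or more counts in each library and 0.81 for the 619 with 50 to 99 in the lowest, so the ratios of deeply covered transcripts are the firmer ones.

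By edgeR's quasi-likelihood test with the library as a block and a Benjamini-Hochberg adjusted p below 0.05, coding sequence was denser in 3956 transcripts (54.1%), the 3′ UTR in 1118 (15.3%), and 2243 passed in neither direction. Differences of at least 2-fold were found in 3251 transcripts toward coding sequence (44.4%) and 746 toward the 3′ UTR (10.2%). Calls followed depth: 86.4% of the transcripts with 1000 or more counts were called and 41.7% of those with 50 to 99.

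A transcript's own poly(A) ratio is another reference, measured without immunoprecipitation. With the poly(A) reads of each region in place of the region length, region lengths cancel. This comparison took 6737 members with at least 20 poly(A) reads in each region; the counting error of those reads does not enter the test. The median CLIP ratio relative to poly(A) was −0.23, and it was −0.22, −0.26 and −0.27 in 35L33G, 2J3 and polyclonal. Against this reference the balance of calls turned: coding sequence was higher in 1538 transcripts (22.8%), the 3′ UTR in 2462 (36.5%), and 2737 passed in neither direction (edgeR, adjusted p below 0.05). At 2-fold or more there were 1030 toward coding sequence (15.3%) and 1749 toward the 3′ UTR (26.0%). In this fit both regions of a library share the library total, which cancels from their ratio. When the 6 columns were instead scaled to one another by TMM, the counts were 2039 and 1950 and the median 0.04. TMM centres the typical transcript near 0 and so removes a typical difference between regions. It therefore cannot test the excess toward the 3′ UTR. Per base, the same scaling moved the median from 0.87 to 0.11 and the counts to 2491 toward coding sequence and 2138 toward the 3′ UTR. Exon minus coding counts, which bring in the 5′ UTR reads, gave a smaller excess toward the 3′ UTR relative to poly(A). The counts were then 1827 toward coding sequence and 2206 toward the 3′ UTR, with a median of −0.085.

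Both references gave the same answer for nearly all transcripts that were denser in the 3′ UTR, and for fewer of those denser in coding sequence. Among the transcripts in the poly(A) comparison, 3553 were denser in coding sequence per base (52.7%); 1512 of them (42.6%) were also higher in coding sequence relative to poly(A) and 483 (13.6%) were higher in the 3′ UTR. Of the 1066 denser in the 3′ UTR per base (15.8%), 1019 (95.6%) were also higher there relative to poly(A) and 5 went the other way. Both tests read the same CLIP counts, so the overlap is not independent support. The poly(A) ratio was above 0 in 93.5% of the 7317 members, so taking it as reference moved most ratios toward the 3′ UTR. The unequal shares of 95.6% and 42.6% are therefore partly built in.

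**Figure D2:**
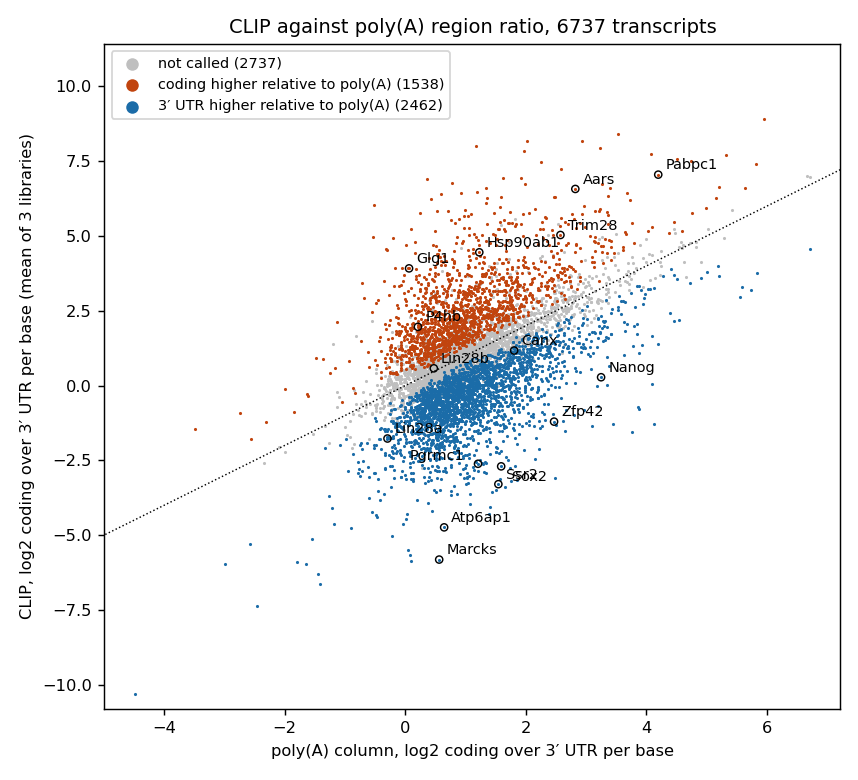
Region ratio in CLIP (y axis, log2, mean of the 3 libraries) against the poly(A) column (x axis, log2) for 6737 transcripts; colour marks the 1538 called toward coding sequence and the 2462 called toward the 3′ UTR relative to poly(A), grey the 2737 not called, and the dotted line equality. Marcks, Atp6ap1, Ssr2 and Sox2 lie far below the line, and Pabpc1, Aars, Glg1 and Hsp90ab1 above it, while Lin28b lies on it.

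The transcripts at the ends of the per-base ratio were mostly lopsided in the poly(A) column as well. Among transcripts with at least 200 counts in each library and 300 bases in each region, the 12 highest were Ftl2, Usp9x, Atp5j, Mthfd1l, Slc44a1, Tcp1, Asnsd1, Itsn1, Sarnp, Bub1, Btf3 and Nup93, with mean ratios from 8.41 to 11.67 on the log2 scale. Their 3′ UTRs had between 0 and 48 poly(A) reads, and 11 of the 12 missed the poly(A) minimum. Atp5j, a subunit of the mitochondrial ATP synthase, had 584, 680 and 829 coding counts (35L33G, 2J3, polyclonal) and none in the 3′ UTR, against 1021 coding and 0 3′ UTR poly(A) reads. With exon minus coding counts, which bring in the 5′ UTR reads, fitted ratios of this end were lower for most genes: 8.30 became 4.09 for Tcp1 and 8.04 became 1.64 for Asnsd1, and the 12 ran from 1.64 to 13.92. Ftl2, a ferritin light chain gene with a near-identical copy elsewhere in the genome, had 0 counts in the 3′ UTR in every library and 1 poly(A) read there, and its reads could be split with that copy. Tcp1, a chaperonin subunit, was the one in the poly(A) comparison, which reads the same CLIP counts. It was higher in coding sequence there too, by 2.97 ± 1.88 on the log2 scale (SD, n = 3, edgeR adjusted p = 0.0016). In all, 118 members had no 3′ UTR count in any library, and 86 of these had fewer than 10 poly(A) reads in the 3′ UTR.

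At the other end were Chchd2, Sms, Ube2d2, Arxes2, Ptma, Csnk2a1, Set, Polr1d, Marcks, Ube2l3, Ptges3 and Nutf2, with mean ratios from −10.30 to −5.04. Of these, 6 missed the poly(A) minimum, having between 2 and 14 coding poly(A) reads. The other 6 were all called toward the 3′ UTR relative to poly(A), in a test on the same CLIP counts that placed them here. Sms, spermine synthase, and Ube2d2, a ubiquitin-conjugating enzyme, were the only members with no coding count in any library. Ube2d2 had 574, 592 and 488 counts in the 3′ UTR, which makes the 3′ UTR at least 120.1-fold denser with coding sequence set to a floor of 3 counts over the 3 libraries, but its coding sequence had only 14 poly(A) reads. Ube2l3 and Ptges3, with 3′ UTR densities far above coding in CLIP, were as lopsided in the poly(A) column, where their coding sequences had 2 and 5 reads; their ratios relative to poly(A) were 0.13 ± 1.49 and −0.29 ± 2.06, with no test. Chchd2, a mitochondrial and nuclear regulator of respiration, had 9, 3 and 0 coding counts against 2972, 3173 and 3220 in the 3′ UTR; its poly(A) reads were 90 and 1970.

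Relative to poly(A), and with at least 100 poly(A) reads in each region, the 12 transcripts furthest toward coding sequence were Naa35, Kri1, Cnpy3, Cdc16, Prpf3, Brms1, Glg1, Ppp6c, Thop1, Nme2, Aars and Ncaph, by 3.72 to 4.61 on the log2 scale. Over these genes the CLIP to poly(A) ratio, scaled to library totals, had a median of −0.51 in coding sequence, the same as over all members, and of −4.33 in the 3′ UTR. Against the member medians, all 12 were at least 2-fold low in the 3′ UTR. Of them 4, Cnpy3, Glg1, Ppp6c and Brms1, were also at least 2-fold high in coding sequence. The genes were chosen by the difference between these regional ratios, so large departures follow from that choice. With exon minus coding counts the fitted values ran from 1.59 (Ncaph) to 4.06 (Nme2). Glg1, a sialoglycoprotein of the Golgi apparatus (mm9 chromosome 8, 113681458 to 113783102), had 4418, 4682 and 4724 coding counts and only 29, 28 and 30 in the 3′ UTR. That is 1252, 1327 and 1339 against 84.8, 81.9 and 87.7 counts per kilobase, whereas poly(A) densities were nearly equal at 537 and 512. The difference relative to poly(A) was 3.86 ± 0.07 (adjusted p = 2.7e-07).

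Cnpy3, a co-chaperone of Toll-like receptors in the endoplasmic reticulum (ER), showed a similarly tight difference. Its coding counts were 955, 954 and 920 and its 3′ UTR counts 38, 45 and 50, and the ratio relative to poly(A) was 3.92 ± 0.22 (adjusted p = 1.3e-06). Aars, the alanyl-tRNA synthetase (mm9 chromosome 8, 113557867 to 113580770), had 2603, 2391 and 2223 coding counts and 32, 12 and 12 in the 3′ UTR, with 4817 and 464 poly(A) reads. In Aars the difference relative to poly(A) was 3.75 ± 0.70 (adjusted p = 7.1e-06). Others rested on few 3′ UTR counts and varied more between libraries. Kri1, a ribosome biogenesis factor in yeast, had 0, 8 and 42 counts in the 3′ UTR, an SD of 3.14, and lost its call when 2J3 was left out, with a fitted value of 2.5 then against 2.80 with all 3 libraries. Naa35, a subunit of an N-terminal acetyltransferase, had 34, 0 and 8.

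The 12 furthest toward the 3′ UTR were Marcks, Snrpd1, Atp6ap1, Epb4.1l1, Ewsr1, Ccrn4l, Ddah2, Ssr2, Slc7a3, Cd9, Zfp36l2 and Ptma, by −6.38 to −4.32. In 10 of these the 3′ UTR was at least 2-fold above the member median in CLIP to poly(A) ratio. In 7 coding sequence was at least 2-fold below it. The medians were 2.91 in the 3′ UTR and −2.71 in coding sequence. Here too the genes were chosen by the difference between these regional ratios, so large departures follow from the choice. With exon minus coding counts the fitted values ran from −5.91 (Marcks) to −2.94 (Ptma), and that of Snrpd1 went from −5.60 to −3.75. Atp6ap1, an accessory subunit of the vacuolar proton pump (mm9 chromosome X, 71542436 to 71550060), had 2323, 2657 and 2732 counts in the 3′ UTR and 150, 161 and 195 in coding sequence. Poly(A) reads ran the other way, 132 in the 3′ UTR and 362 in coding sequence. The ratio relative to poly(A) was −5.38 ± 0.12 (adjusted p = 1.1e-07).

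Ssr2, the beta subunit of the translocon-associated protein complex (mm9 chromosome 3, 88383593 to 88392335), had the most reads of the 12. Its 3′ UTR held 11471, 11239 and 11195 counts and its coding sequence 989, 1123 and 924, or 18179, 17811 and 17742 against 1792, 2034 and 1674 per kilobase. Poly(A) density was 1035 per kilobase in the 3′ UTR and 3025 in coding sequence. The difference relative to poly(A) was −4.84 ± 0.14 (adjusted p = 1.0e-07). Marcks, an actin-binding substrate of protein kinase C (mm9 chromosome 10, 36853049 to 36858732), had 2503, 3018 and 3426 counts in the 3′ UTR and only 26, 13 and 9 in coding sequence, against 287 and 121 poly(A) reads. Cd9, a tetraspanin of the cell surface, had 3950, 3114 and 3236 in the 3′ UTR and 673, 743 and 705 in coding sequence. Slc7a3, a transporter of cationic amino acids, had 2270, 2624 and 2752 and 1078, 1066 and 1015.

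Ewsr1 and Zfp36l2, both RNA-binding proteins, leaned the same way. In Ewsr1 coding counts were 363, 329 and 388 and 3′ UTR counts 703, 626 and 794, with 3191 and 193 poly(A) reads, a difference of −5.01 ± 0.05. Zfp36l2, which promotes decay of mRNAs with AU-rich elements, had 24, 20 and 27 coding counts and 351, 444 and 482 in the 3′ UTR. Ccrn4l, the deadenylase-like nocturnin, varied most, with 51, 3 and 15 coding counts. Ptma, prothymosin alpha, belongs to a family with many processed copies in the genome, and its reads could be split with them.

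**Figure D3:**
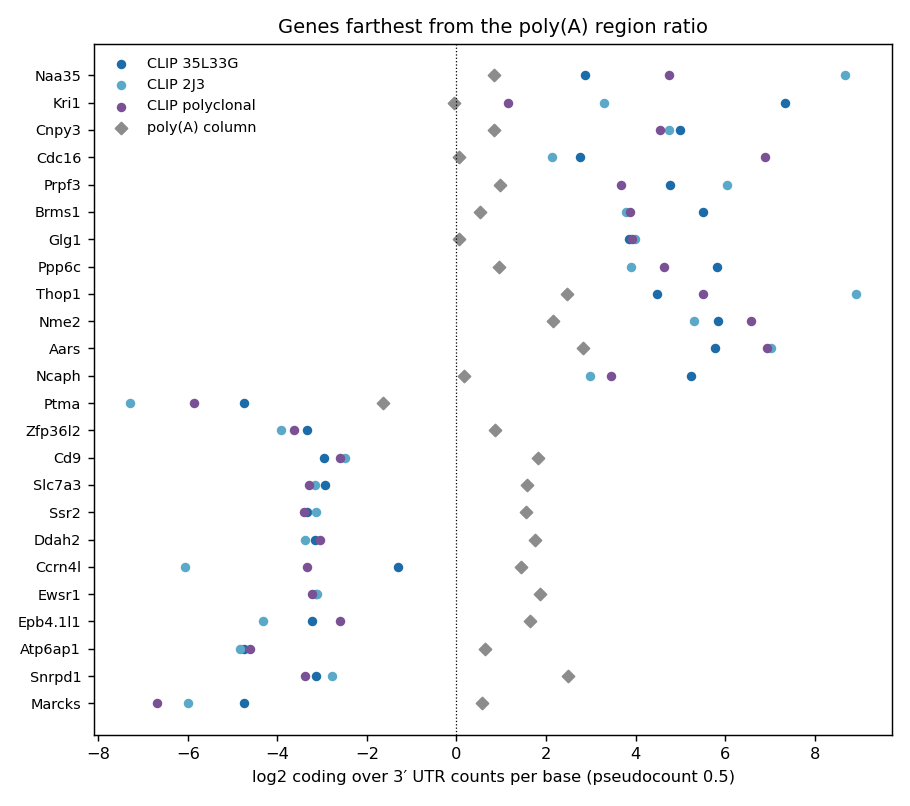
Region ratio of the 12 transcripts furthest toward coding sequence and the 12 furthest toward the 3′ UTR relative to poly(A). The x axis is log2 of coding over 3′ UTR counts per base; each circle is 1 CLIP library and the grey diamond is the poly(A) column. The circles of Glg1, Cnpy3, Atp6ap1, Ssr2 and Ewsr1 nearly coincide and lie far from the diamond, while those of Kri1, Naa35, Cdc16 and Ccrn4l are widely spread.

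LIN28A's own mRNA was read mainly in the 3′ UTR. Lin28a (mm9 chromosome 4, 133559245 to 133574731) had 211, 198 and 171 coding counts and 2672, 3184 and 3084 in the 3′ UTR, or 335, 314 and 271 against 938, 1117 and 1082 per kilobase. The 3 libraries did not overlap between regions. The per-base ratio was −1.77 ± 0.26 (adjusted p = 2.2e-05) and, relative to a poly(A) ratio of −0.29, −1.47 ± 0.26 (adjusted p = 2.9e-05). The paralog Lin28b (mm9 chromosome 10, 45096425 to 45190007) had 341, 320 and 237 coding counts and 1124, 1071 and 1147 in a 3′ UTR with a long non-coding length of 4587 bases. It was denser in coding sequence per base, at 0.58 ± 0.31 (adjusted p = 0.013). That call was lost without 35L33G (0.49) or 2J3 (0.50), and the ratio turned to −0.17 under TMM scaling. Lin28b stood at 0.10 ± 0.31 relative to poly(A) (adjusted p = 0.58).

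Of the 22 gene lists examined, pluripotency factors had the lowest median ratio and the highest share called toward the 3′ UTR. Of the 29 in the poly(A) comparison, 20 were called toward the 3′ UTR (69.0%, against 36.5% of all members) and 3 toward coding sequence (10.3%, against 22.8%), with a median of −1.47 where that of all members was −0.23. Sox2 (mm9 chromosome 3, 34548927 to 34551382), a core transcription factor of the pluripotency network, had 802, 834 and 735 coding counts and 7785, 7515 and 8683 in the 3′ UTR. Poly(A) reads were 4747 and 2451. Every library thus had several times more 3′ UTR than coding reads while the mRNA itself had more coding reads, a difference of −4.29 ± 0.20 (adjusted p = 1.1e-07).

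Nanog (mm9 chromosome 6, 122657586 to 122663796), a homeodomain factor of the same network, had 325, 294 and 393 coding counts and 123, 130 and 141 in the 3′ UTR. Per base the regions did not pass the test (0.28 ± 0.16, adjusted p = 0.26), but poly(A) was far denser in coding sequence, with 3182 and 159 reads, and the difference relative to it was −2.97 ± 0.16 (adjusted p = 1.4e-05). Zfp42, also called Rex1, a zinc finger marker of the naive state, had 1588, 1376 and 1176 coding counts and 3080, 3612 and 3519 in the 3′ UTR, which was −3.67 ± 0.32 relative to poly(A). Utf1, a chromatin-bound transcription factor of stem cells, had 149, 124 and 81 against 51, 46 and 31 over a non-coding length of only 140 bases, and stood at −3.07 ± 0.09.

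Further factors of the list, chosen after their values were seen, gave ratios relative to poly(A) of −4.15 for Klf4, −2.98 for Mycn and −1.90 for Tdgf1, the co-receptor of Nodal signalling. Their adjusted p-values by edgeR were 3.9e-06, 5.5e-07 and 1.4e-06. The 3 called toward coding sequence were Klf5 (4.75, with 3, 0 and 0 in the 3′ UTR), Trim28 (2.46 ± 0.50) and Dppa2 (1.90). Trim28, the corepressor of zinc finger proteins that silence retroelements, had 10761, 10873 and 11766 coding counts and 66, 102 and 145 in the 3′ UTR. Tet1, which oxidises methylated cytosine, showed no difference from its poly(A) ratio that passed the test: 1.21 ± 0.05 in CLIP against 1.20. Its coding plus 3′ UTR counts exceeded the exon counts, as they did in 61 members, so its tallies are uncertain. Pou5f1, encoding Oct4, had 2697, 2868 and 2618 coding counts and 0, 3 and 0 in the 3′ UTR, but only 4 poly(A) reads there, so its regions could not be compared relative to poly(A).

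Messages of the secretory pathway did not share one direction. Among 29 ER chaperones and folding enzymes, 13 were called toward coding sequence (44.8%) and 10 toward the 3′ UTR (34.5%) relative to poly(A). Their median was 0.06 (−0.07 without 35L33G). For this and the following lists, the shares over all members were 22.8% toward coding sequence and 36.5% toward the 3′ UTR. The ER chaperones were thus above the first share and near the second. Those shares hold for the main setting only. Over the 6737 members, TMM scaling gave 2039 toward coding sequence and 1950 toward the 3′ UTR. Leaving out 1 library gave 1219 to 1386 and 2042 to 2179, so list counts without a library fall partly with those of all members. Canx, the lectin chaperone calnexin, had 28991, 30495 and 30815 coding counts and 18861, 18829 and 18879 in the 3′ UTR. Its per-base ratio was 1.17 ± 0.05 toward coding sequence, and because poly(A) stood at 1.81 its ratio relative to poly(A) was −0.63 ± 0.05 (adjusted p = 4.6e-05). Hsp90b1, the ER member of the Hsp90 family, behaved alike, at 0.95 ± 0.07 per base and −0.92 ± 0.07 relative to poly(A). The latter turned to 0.40 when non-coding counts were taken as exon minus coding counts. P4hb, protein disulphide isomerase, had 18704, 18831 and 17599 coding counts and 3178, 3134 and 2980 in the 3′ UTR, and was higher in coding sequence by both measures, at 1.97 ± 0.02 and 1.75 ± 0.02.

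Among 24 genes of ER translocation and glycosylation, 15 were called toward the 3′ UTR (62.5%) and 4 toward coding sequence (16.7%), with a median of −0.69; the latter count was 2 without 35L33G or without 2J3. The 4 genes of the translocon-associated protein complex, a set chosen after its values were seen, differed among themselves. Ssr2 stood at −4.84 and Ssr3 at −0.76, whereas Ssr1, at −0.17 ± 0.20, did not pass the test (adjusted p = 0.17) and Ssr4 had too few poly(A) reads in its 3′ UTR. Stt3a, a catalytic subunit of the oligosaccharyltransferase, had 5423, 5308 and 4944 coding counts and 2056, 2611 and 2574 in the 3′ UTR, and stood at −1.22 ± 0.24 relative to poly(A).

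Solute carriers, TMEM genes and mitochondrial carriers leaned to the 3′ UTR, under library-total and TMM scaling alike. Of 95 solute carriers outside the mitochondrial family, 61 were called toward the 3′ UTR (64.2%) and 11 toward coding sequence (11.6%), with a median of −0.84. Slc38a4, an amino acid transporter, had 1941, 1951 and 2144 coding counts and 4150, 4111 and 4737 in the 3′ UTR, and stood at −1.92 ± 0.04 relative to poly(A) (adjusted p = 9.2e-07). Slc38a2 stood at −1.15 ± 0.12, and Slc2a3, the glucose transporter GLUT3, at −0.47 ± 0.05. Of 77 TMEM genes, which encode transmembrane proteins of varied or unknown function, 40 were called toward the 3′ UTR (51.9%) and 3 toward coding sequence (3.9%), with a median of −0.85. Of 24 mitochondrial SLC25 carriers, 13 were called toward the 3′ UTR (54.2%) and 2 toward coding sequence (8.33%). Without 35L33G or without 2J3, 1 TMEM gene was called toward coding sequence, and of the SLC25 carriers 8 were called toward the 3′ UTR and 0 toward coding sequence by edgeR, also 0 at an unadjusted p below 0.05. Slc25a3, the mitochondrial phosphate carrier, stood at −2.16 ± 0.23.

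Extracellular matrix and secreted proteins leaned the same way, with 16 of 24 called toward the 3′ UTR (66.7%) and 4 toward coding sequence (16.7%), and a median of −0.87. Their best covered member, the matrix glycoprotein Fn1, with 41658, 40768 and 41513 coding counts, differed little, at −0.28 ± 0.12 (adjusted p = 0.0079), and lost its call without 2J3 (−0.26) and under TMM scaling (−0.01). Plasma membrane receptors and adhesion proteins gave 20 of 41 toward the 3′ UTR (48.8%) and 10 toward coding sequence (24.4%, near the 22.8% of all members). Under TMM scaling the counts were 16 and 13, and over all 6737 members 1950 and 2039. Cdh1, E-cadherin, had 6719, 6345 and 6189 coding counts and 6300, 6525 and 6320 in the 3′ UTR, and stood at −1.30 ± 0.07, whereas Tfrc, the transferrin receptor, stood at 0.06 ± 0.07 (adjusted p = 0.52). Lysosomal proteins gave 13 of 26 toward the 3′ UTR and 5 toward coding sequence (19.2%). Under TMM scaling they gave 8 and 8, a setting in which all members also gave nearly equal counts. Their count toward coding sequence was 2 without 35L33G and 3 without either of the other libraries. Pgrmc1, a haem-binding membrane protein of the ER (mm9 chromosome X, 34138220 to 34146074), had 1050, 1155 and 953 coding counts and 13306, 13748 and 13847 in the 3′ UTR, against 446 and 410 poly(A) reads, a difference of −3.82 ± 0.15.

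Several sets of cytosolic machines leaned to coding sequence under library-total scaling. TMM scaling moved the median of all members toward coding sequence, from −0.23 to 0.04, so it could not test this lean. Of 18 genes of the chaperonin and the cytosolic chaperones, 12 were called toward coding sequence (66.7%) and 4 toward the 3′ UTR (22.2%), with a median of 1.18. Hsp90ab1, the constitutive cytosolic Hsp90 (mm9 chromosome 17, 45704727 to 45710210), had 31202, 31258 and 35143 coding counts and 244, 266 and 176 in the 3′ UTR, with 56552 and 3678 poly(A) reads, a difference of 3.23 ± 0.41 (adjusted p = 9.3e-07). The CCT chaperonin, which folds actin and tubulin, is built from the products of 8 genes, all measured here. Of these, 6 were called toward coding sequence, with Cct8 at 2.08, Cct3 at 2.18 and Tcp1 at 2.97 ± 1.88. Tcp1 rested on 1, 20 and 6 counts in the 3′ UTR, and its fitted value of 2.36 became 1.37 with exon minus coding counts. Cct5, at −2.04, and Cct6a, at −0.84, were called toward the 3′ UTR, so subunits of one complex differed in direction.

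Of 20 aminoacyl-tRNA synthetases, 11 were called toward coding sequence (55.0%) and 4 toward the 3′ UTR (20.0%), with a median of 0.70. Eprs, the glutamyl-prolyl synthetase, had 10104, 10285 and 11097 coding counts and 62, 91 and 40 in the 3′ UTR, and stood at 1.80 ± 0.65 relative to poly(A). Lars, for leucine, stood at 1.52 ± 0.50 and Nars, for asparagine, at −0.10 ± 0.24 (adjusted p = 0.45). Of 60 translation factors, 31 were called toward coding sequence (51.7%) and 17 toward the 3′ UTR (28.3%), with a median of 0.57. Pabpc1, the poly(A)-binding protein, had 20830, 21269 and 20868 coding counts and 100, 65 and 64 in the 3′ UTR, and stood at 2.85 ± 0.37 (adjusted p = 1.4e-06). Eef2, which drives ribosome translocation, stood at 1.33 ± 0.09. Of the 11 subunits of the initiation factor eIF3 in the poly(A) comparison, 7 were called toward coding sequence and 2, Eif3i and Eif3l, toward the 3′ UTR, at −3.17 and −2.71. The CCT and eIF3 sets were chosen after the values had been seen.

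Other machines were divided, leaned the other way or lay near the shares of all members. Cytosolic ribosomal protein genes have many processed copies, so their counts are uncertain. Of the 29 in the comparison, 17 were called toward the 3′ UTR (58.6%) and 8 toward coding sequence (27.6%), but 14 and 12 with exon minus coding counts, where the median went from −0.60 to −0.042. Rps26 had 7609, 7758 and 8626 coding counts and 15306, 18275 and 18440 over only 100 non-coding bases, and stood at −3.05 ± 0.11. Mitochondrial ribosomal proteins gave 30 of 59 toward the 3′ UTR (50.8%) and 11 toward coding sequence (18.6%; 7 genes without 35L33G). Within them Mrpl40 stood at −2.40 ± 0.13 and Mrpl2 at 3.18 ± 0.69, both called. Splicing factors gave 23 of 47 toward the 3′ UTR (48.9%) and 11 toward coding sequence (23.4%). They gave 20 and 18 with exon minus coding counts and 21 and 16 under TMM scaling. Over all 6737 members, exon minus coding counts gave 2206 toward the 3′ UTR and 1827 toward coding sequence, and TMM scaling 1950 and 2039. Hnrnpu, which binds nascent RNA, stood at −1.29 ± 0.08. Of 34 proteasome subunits, 13 were called toward the 3′ UTR (38.2%) and 11 toward coding sequence (32.4%), and of 42 replication and cell cycle genes 16 (38.1%) and 10 (23.8%). Over all members these shares were 36.5% and 22.8%. The proteasome list was near the first of them, and the replication list near both. The medians of these lists, −0.25 and −0.12, turned positive under TMM scaling (0.01 and 0.15) and with exon minus coding counts (0.23 and 0.45). TMM scaling turned the median of all members positive as well (0.04).

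Transcripts listed as targets of let-7, which acts through 3′ UTR sites, gave 15 of 30 toward the 3′ UTR and 5 toward coding sequence (16.7%), with a median of −0.73; the latter count was 2 without 2J3 and 3 without polyclonal. Igf2bp1, an mRNA-binding protein, had 2043, 2160 and 1949 coding counts and 6520, 6209 and 6646 over 6647 non-coding bases, and stood at −0.84 ± 0.12. Tgfbr1, a receptor kinase, stood at −0.43 ± 0.12. Lin28a, Lin28b, Mycn, Zfp281 and Tet2 are also in the pluripotency list. The 132 zinc finger Zfp genes gave 50 toward the 3′ UTR (37.9%, near the 36.5% of all members) and 15 toward coding sequence (11.4%; 9 genes without 35L33G). Chromatin remodelers and modifiers gave 14 of 44 toward coding sequence (31.8%) and 9 toward the 3′ UTR (20.5%). Chd4, the ATPase of the NuRD complex, stood at 1.52 ± 0.24, and Jarid2 and Suz12, partners in Polycomb repression, at −1.14 ± 0.06 and −0.77 ± 0.17. RAB GTPases, which direct vesicle traffic, gave 12 of 28 toward coding sequence (42.9%) and 6 toward the 3′ UTR (21.4%). Rab10 and Rab2a stood at 2.16 ± 0.26 and 2.23 ± 0.34, and Rab1 at −2.12 ± 0.32. Histone genes share reads with copies and only 6 of 22 had enough poly(A) reads; of these 2 were called toward coding sequence and 3 toward the 3′ UTR.

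**Figure D4:**
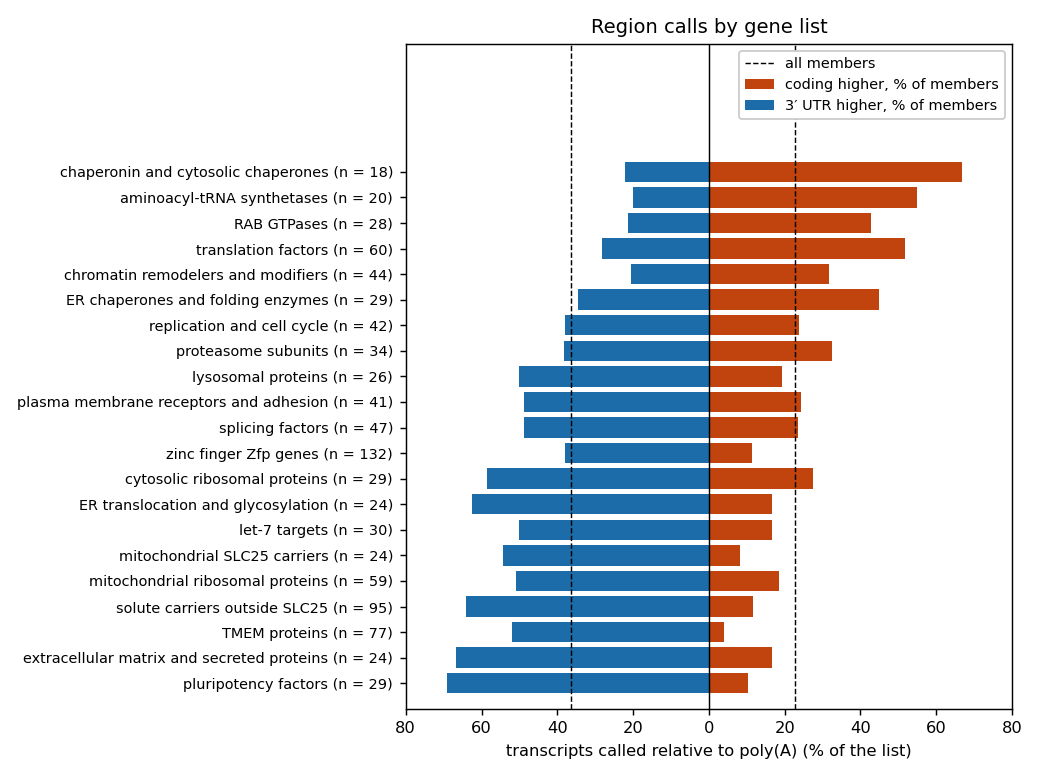
Share of each gene list called toward coding sequence (right, orange) or toward the 3′ UTR (left, blue) relative to poly(A), in % of the transcripts of the list in the comparison, whose number is given as n; histones, with 6, are left out. Dashed lines are all 6737 members, at 22.8% and 36.5%; lists are ordered by median ratio, from pluripotency factors at −1.47 to the chaperonin and cytosolic chaperones at 1.18.

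The region ratio alone does not tell which region departs from the typical transcript. Each region's CLIP to poly(A) ratio, scaled to library totals, had a median of −0.51 for coding sequence and −0.22 for the 3′ UTR over the 6737 members. Measured from those medians, pluripotency factors were low in coding sequence (−0.96) and slightly high in the 3′ UTR (0.32). Solute carriers were high in both, but more in the 3′ UTR (1.43) than in coding sequence (0.68), and TMEM genes were alike (1.13 and 0.55). ER chaperones and plasma membrane receptors were high in both regions by similar amounts, 2.11 and 1.77 for the former and 1.98 and 2.05 for the latter, in coding sequence and 3′ UTR. The chaperonin list was near the median in coding sequence (−0.07) and low in the 3′ UTR (−1.34), and the synthetases were alike (−0.16 and −0.95).

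**Figure D5:**
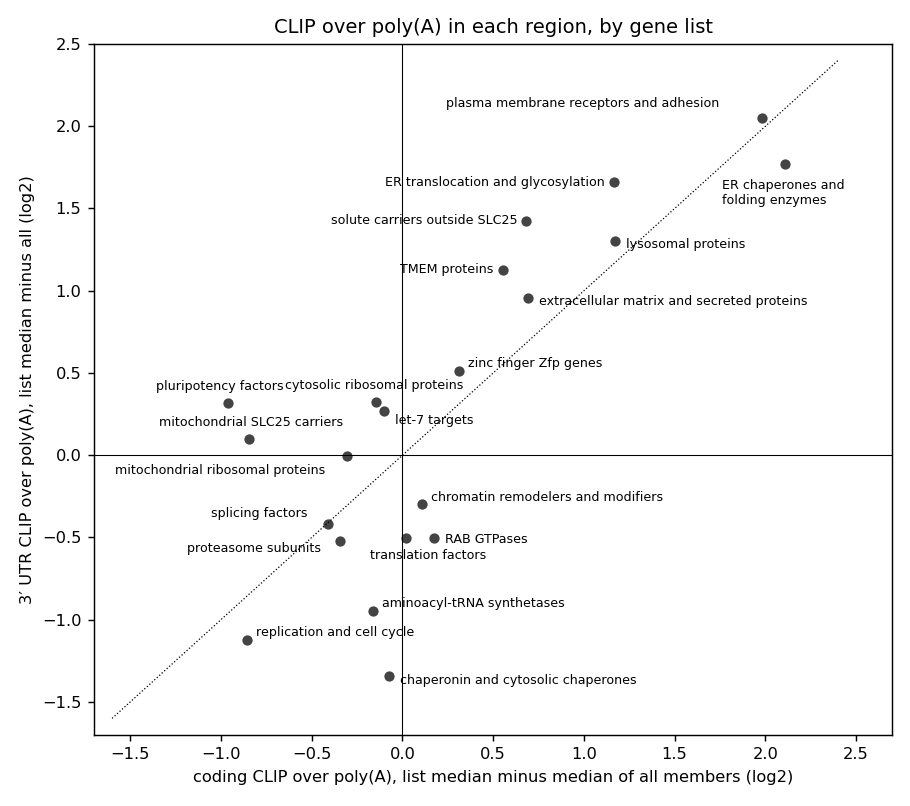
CLIP to poly(A) ratio of each gene list in coding sequence (x axis) and in the 3′ UTR (y axis), as the log2 list median minus the median of all members; the dotted line marks equal departure in both regions. ER chaperones and plasma membrane receptors lie near 2 on both axes, solute carriers, TMEM genes and pluripotency factors above the line, and chaperonin, synthetase and translation factor lists below it.

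Over single transcripts both regions tended to move together, with a rank correlation of 0.51 between the coding and the 3′ UTR ratio across the 6737 transcripts, a description in which both share libraries and mRNA level. At least 2-fold above the member median in both regions were 827 transcripts (12.3%), and 629 were 2-fold below in both (9.34%). Only 80 (1.19%) were 2-fold above in coding sequence and 2-fold below in the 3′ UTR, and 93 (1.38%) the reverse.

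The region ratio varied with length. In quintiles of the non-coding length, the median ratio relative to poly(A) was 0.18 for the shortest (33 to 501 bases), then −0.07, −0.24 and −0.34, and −0.38 for the longest (2574 to 16465 bases). Of the transcripts with the longest non-coding part 607 of 1438 were called toward the 3′ UTR and 232 toward coding sequence, and of those with the shortest 337 and 370 of 1105. The poly(A) minimum in each region kept 1438 of 1463 members of the longest quintile but 1105 of 1467 of the shortest. Its part in the gradient was not tested. Coding length showed a smaller gradient the other way, from −0.34 in the shortest quintile to −0.06 in the longest. Non-coding length was also unequal between lists: its median was 336.5 bases for synthetases and 692 for the chaperonin list, against 1713 for solute carriers and 1349 for TMEM genes, but 1596.5 for RAB GTPases. Its part in the list differences was not tested.

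Ribosome density is given as footprints over poly(A) reads in siLuc cells, centred on the median transcript. Over quintiles of the ratio relative to poly(A), from most toward the 3′ UTR to most toward coding sequence, median log2 ribosome density was 0.37, 0.02, −0.04, −0.16 and −0.11, highest in the quintile most toward the 3′ UTR. The change of ribosome density with siLin28a, from 1 library per condition and so with no replicate check, had medians of 0.01, 0.02, 0.02, −0.02 and −0.05. It was higher where either region had more CLIP reads per poly(A) read: medians ran from −0.30 to 0.58 over quintiles of the coding value and from −0.26 to 0.56 over quintiles of the 3′ UTR value. Where both values were in the top tertile, the median change was 0.59 (1146 transcripts), and where both were in the bottom tertile it was −0.35 (1062). Transcripts high in coding sequence and low in the 3′ UTR had a median of 0.11 (253), and those low in coding sequence and high in the 3′ UTR −0.02 (249). CLIP and footprint values share the mRNA level of the transcript, and these gradients are descriptions.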

How the data were processed

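The CLIP table holds whole-number read counts per RefSeq transcript for its exons, coding sequence and UTRs, as deposited by the authors, with 1 set of columns per CLIP library and 1 for a poly(A) library. Poly(A) and ribosome footprint tables hold read counts per transcript, also as deposited. GSNAP, bedtools and mm9 are named in the submitters' processing notes, without their roles; the rule for counting and for reads with several matches is not given in the sources used here. Coordinates are mm9 as in the tables, and the RefSeq gene table listed 7260 of the members. The files' other 22 per-sample columns, including those of the 5′ UTR, were not used.

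Coding and 3′ UTR counts of the 3 libraries were fitted together with edgeR 4.0.16 (R 4.3.3) by its quasi-likelihood test, two-sided, with library and region as terms and log library total plus log region length as offset. Transcripts with at least 10 counts over the 6 columns entered, and p-values were adjusted by Benjamini-Hochberg over all of them. The library term pairs the regions because both come from the same library. For the comparison relative to poly(A), the region's poly(A) reads plus 0.5 replaced the length as a fixed offset and were not themselves tested; the minimum of 20 reads was chosen after seeing the data. Errors are SD over the 3 libraries of log2 ratios with a pseudocount of 0.5, and intervals and floors cover counting error only. The per-base edgeR fit was tested on simulated data, in which few of 7691 transcripts were changed. It recovered 5.97% of 1.5-fold, 46.3% of 2-fold and 98.5% of 4-fold differences, and 6.54% of its calls were unchanged transcripts. The fit relative to poly(A) was not simulated. Rank correlations, medians and figures used Python 3.11.15, pandas 2.3.3, scipy 1.17.1 and matplotlib 3.10.9; DESeq2 1.42.0 and limma 3.58.1 served as alternatives.

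Genes were named as the 12 highest and 12 lowest called per base, with 200 counts in each library and 300 bases in each region, by the same rule relative to poly(A) with 100 poly(A) reads in each region (added after seeing the data), and as the 3 best covered members of each gene list, beside Lin28a, Lin28b, Pou5f1, Sox2, Nanog, Utf1, Tet1 and Pgrmc1. The members, lists and alternatives were chosen with earlier results of these data known. In 31 members the coding length was not a multiple of 3, and in 61 the coding plus 3′ UTR counts exceeded the exon counts of a library.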

Additional observations from a re-analysis of the deposited data

How the results depend on the processing

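Per base, 3956 transcripts were called toward coding sequence and 1118 toward the 3′ UTR. With DESeq2 the counts were 3916 and 1092, with limma 3851 and 1068, with no low-count filter 3955 and 1118, with exon minus coding counts 3769 and 1221, and in regions of at least 300 bases 3536 and 994. Leaving out 1 library gave 3435 to 3611 and 871 to 942, and for the comparison relative to poly(A) 1219 to 1386 and 2042 to 2179. With no replicate block, that is, with the pairing of regions within a library ignored, the counts were 4104 and 1197. TMM scaling between regions gave 2491 and 2138, and subtracting the poly(A) ratio gave 1538 and 2462, since these settings change what a transcript is compared with. The median ratio of 0.87 became 0.11 under TMM, 0.74 with exon minus coding counts, 0.82 in regions of at least 300 bases and −0.23 after subtracting poly(A). The last value became 0.042 under TMM, which centres the columns by construction, and −0.085 with exon minus coding counts; that cause was not tested. Relative to poly(A), exon minus coding counts gave 1827 and 2206, and a minimum of 100 poly(A) reads gave 1069 and 1667. The TMM, exon minus coding, tally and leave-one-out settings of that comparison and the poly(A) minimum of 100 were chosen after seeing the data.

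Of the values for named genes under the alternatives, 34 changed direction per base and 6 relative to poly(A), whereas 1177 and 445 kept direction and call. Alternatives give the fitted value, which for genes with few counts in a region differs from the mean of the 3 library ratios. Subtracting the poly(A) ratio turned the per-base values of Canx (−0.63), Hsp90b1 (−0.92), Ssr1 (−0.17), Psap (−0.36), Ctsl (−0.41), Slc2a3 (−0.47), Slc38a2 (−1.15), Slc25a46 (−1.48), Slc25a4 (−0.56), Fn1 (−0.28), Lamc1 (−0.19), Cdk4 (−0.45), Rpl4 (−0.50), Rps3 (−2.30), Mrpl15 (−0.21), Hnrnpu (−1.29), Nars (−0.10), Zfp106 (−0.24), Zfp292 (−0.11), Igf2bp1 (−0.84) and H2afv (−1.06). TMM turned those of Tfrc (−0.084), Psap (−0.089), Slc2a3 (−0.57), Slc38a2 (−0.46), Slc25a46 (−0.22), Tmem57 (−0.10), Fn1 (−0.034), Lamc1 (−0.29), Mcm6 (−0.35), Zfp292 (−0.24), Igf2bp1 (−0.46), Hist1h1a (−0.059) and Lin28b (−0.17). Relative to poly(A), exon minus coding counts turned Hsp90b1 (0.40), Slc25a4 (1.48), Cdk4 (0.58) and Rpl4 (0.40), and TMM turned Lamc1 (0.078) and Zfp106 (0.032). The planned setting with an annotated 3′ UTR length was not run, because the reference tables used here hold no transcript lengths. Depth limits the ratios of transcripts with few counts in a region, whose libraries varied most.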
